A study of Mus musculus with 4 samples.

Results

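In heart ventricles of DOCA-treated mice, 6 corticosteroid-responsive genes were followed: Fkbp5, Klf9, Sgk1, Setdb2, Mt1 and Mt2. All clones with 1 of these names as their single gene symbol were taken, which gave 8 of 16471 clones and 6 of 8106 named genes. Sgk1 and Mt2 had 2 clones each and the other genes 1 clone each, and all 8 clones had a value on each of the 4 arrays. The genes were picked with their log ratios in these arrays known, so those log ratios are given as a description, without a test, and support nothing.

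The high-salt group held 3 mice with 1% NaCl in the drinking water for 5 weeks, and the low-salt group held 3 mice on tap water. Every animal of both groups was a wild-type male from an N5–6 backcross (129Ola/C57BL/6J), given as 1-renin, aged 12 to 13 weeks. Each had lost 1 kidney, ate food with 0.5 mg Na per g and was given the mineralocorticoid DOCA (deoxycorticosterone acetate) over the 5 weeks. The arrays therefore set high against low salt under DOCA, and no mice without the hormone entered the comparison. Each printed cDNA array compared the RNA of 1 high-salt heart with that of 1 low-salt heart (both ventricles with septum), labelled with Cy3 and Cy5. Array 1 held pair 1 and array 3 held pair 3. Arrays 2 and 4 both held pair 2 with the dyes exchanged, were averaged first and counted as 1 pair, so n was 3 pairs. Cy3 was on the high-salt RNA on arrays 1 and 2 and Cy5 on arrays 3 and 4.

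Corticosteroid hormones act through the glucocorticoid and mineralocorticoid receptors, which wait in a chaperone complex, enter the nucleus when hormone binds and switch on genes at DNA palindromes called glucocorticoid response elements (GREs). Both receptors can use the same elements, and DOCA acts mainly on the mineralocorticoid receptor. Metallothionein genes answer glucocorticoid as well, and metals through metal response elements (MREs) bound by MTF1.

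Values are log2 ratios of high over low salt, with base 2 assumed. That direction is likely and not settled, since it follows the wording of the array titles. Between arrays of opposite dye orientation the log ratios of the 16471 clones correlated at r = -0.07 to -0.37. At 736 further features, which recur without a gene name at 23 positions of all 32 print blocks, r was -0.85 to -0.96. Between arrays of the same orientation it was 0.43 and 0.57 for the clones. These are correlations across features, which are not replicates. A ratio array gives no expression level, so neither levels of the genes nor the labelled tissue could be checked. Only 1 of 9 listed cardiomyocyte markers, Atp2a2, was measured. In such bulk tissue, fewer cells of a type and less RNA per cell cannot be told apart.

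Fkbp5 encodes FKBP51, a cochaperone that lowers the hormone affinity of the glucocorticoid receptor and is itself induced by it. Its clone had log2 ratios of 2.05, 1.36, 1.12 and 0.87 on arrays 1 to 4. All were above 0, with the value of pair 1 apart from those of pair 2 (1.11) and pair 3 (1.12). The mean was 1.43 ± 0.54 (SD, n = 3 pairs), which is 2.69-fold high over low salt. On each single array the clone stood at or above percentile 98.9 of all clones.

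Klf9, a Krüppel-like transcription factor induced by glucocorticoid, had log2 ratios of 1.25, 0.80, 0.44 and 0.06 on arrays 1 to 4. The values were again all above 0, but the last lay close to it, at percentile 70.1 of the clones on array 4. Both arrays of pair 2 carried the same RNA, and there Klf9 stood at 0.80 with Cy3 and 0.06 with Cy5 on high salt. The mean was 0.71 ± 0.47 (SD, n = 3 pairs), and without pair 1 it was 0.43.

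Sgk1 is a kinase induced by corticosteroids that keeps sodium channels at the membrane by phosphorylating the ubiquitin ligase NEDD4L. Its first clone had log2 ratios of -0.31, 0.27, 1.18 and 0.89 on arrays 1 to 4, and its second clone had -0.05, 0.22, 1.08 and 0.50. Both clones were below 0 on array 1, above 0 on the other 3 arrays and highest on array 3, where they stood at percentiles 99.9 and 99.8. The clones differed from each other by 0.05 to 0.39 on an array. The gene mean was 0.47 ± 0.65 (SD, n = 3 pairs), an SD larger than the mean. Without pair 3 it was 0.15 and without pair 1 it was 0.80.

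RefSeq (GRCm38.p6) gives Sgk1 6 promoter windows, each running from 250 bases before an annotated start to 50 bases after it. The window at chr10:21993640-21993939 on the plus strand is shown because it holds a full GRE palindrome, the hexamer TGTTCT preceded by its reverse complement AGAACA with any 3 bases between them, in capitals:

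Sgk1: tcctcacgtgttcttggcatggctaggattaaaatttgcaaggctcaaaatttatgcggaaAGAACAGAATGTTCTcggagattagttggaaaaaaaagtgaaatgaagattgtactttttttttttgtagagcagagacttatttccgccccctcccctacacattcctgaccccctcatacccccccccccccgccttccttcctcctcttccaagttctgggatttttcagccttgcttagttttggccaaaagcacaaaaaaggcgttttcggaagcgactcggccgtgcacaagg

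The match starts 189 bases before the annotated transcription start of that window and 965 bases before the most downstream annotated Sgk1 start. The same letters, read on both strands, occur in 3 of 32851 windows of all genes, or 0.00913%. The palindrome contains a shorter form, GNACA and TGTNC with any 3 bases between them, which 0.475% of all windows hold, and each arm is itself a match to the hexamer, which 19% hold. The windows of Fkbp5, Klf9, Setdb2 and Mt2 held no match to any of these motifs, which says only that they are not within these 300 bases. Which start the Sgk1 clones represent is not known, and binding was not measured.

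Setdb2, a member of the SETDB family of histone H3 lysine methyltransferases and reported as glucocorticoid-induced in mouse liver, had log2 ratios of 1.28, 0.92, 1.68 and 1.06 on arrays 1 to 4. All 4 lay above 0, and the values in pairs 1 to 3 were 1.28, 0.99 and 1.68. The mean was 1.32 ± 0.35 (SD, n = 3 pairs), or 2.49-fold, with the smallest SD of the 6 genes. The clone is tied to Setdb2 in the platform annotation through a cDNA record, whereas the other 7 clones are tied to RefSeq transcripts.

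Mt1 and Mt2 encode the metallothioneins, small cysteine-rich proteins that bind zinc and copper. Mt1 had log2 ratios of 1.33, 1.05, 0.58 and 0.49 on arrays 1 to 4, with a mean of 0.89 ± 0.39 (SD, n = 3 pairs). Mt2 had 1.42, 1.90, 0.36 and 0.64 with its first clone and 2.10, 1.62, 0.22 and 0.54 with its second. Both genes were above 0 on every array, and every clone was higher on each of arrays 1 and 2 than on either of arrays 3 and 4. The Mt2 gene mean was 1.08 ± 0.74 (SD, n = 3 pairs). The Mt2 clones differed by up to 0.68, on array 1, and without pair 1 the second clone stood at 0.65 against 1.13 with all pairs. Metallothionein cDNAs are alike, so a clone of one can bind cDNA of the other, and how far this happened was not measured.

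The promoter windows of both genes are shown because each is rich in the MRE letters that MTF1 recognises (TGCACNC or TGCGCNC on either strand, in capitals). They lie on the plus strand, at chr8:94178839-94179138 for Mt1 and chr8:94172368-94172667 for Mt2 (RefSeq, GRCm38.p6), with their starts 6471 bases apart:

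Mt1: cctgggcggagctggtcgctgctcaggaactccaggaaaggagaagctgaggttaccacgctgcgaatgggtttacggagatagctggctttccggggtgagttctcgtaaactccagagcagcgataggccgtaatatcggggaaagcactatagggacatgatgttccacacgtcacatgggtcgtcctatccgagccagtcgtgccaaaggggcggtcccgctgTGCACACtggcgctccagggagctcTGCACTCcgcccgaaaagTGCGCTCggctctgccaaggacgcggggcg
Mt2: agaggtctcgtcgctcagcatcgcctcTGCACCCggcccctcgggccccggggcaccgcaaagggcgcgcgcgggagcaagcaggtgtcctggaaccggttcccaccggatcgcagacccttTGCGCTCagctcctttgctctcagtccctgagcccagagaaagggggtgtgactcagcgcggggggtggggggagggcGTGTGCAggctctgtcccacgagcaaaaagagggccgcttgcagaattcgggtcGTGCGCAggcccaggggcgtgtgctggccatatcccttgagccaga

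The Mt1 window held 3 matches and the Mt2 window 4. Of all 32851 windows, 25.7% held at least 1 match, 1.97% at least 3 and 0.517% at least 4. Of the other members' windows only 1 had a match, at the most downstream Sgk1 start. The Mt1 window also held the shorter GRE letters as GGACAtgaTGTTC (capitals mark the arms, their free bases included), starting 94 bases before its annotated transcription start.

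**Figure D1:**
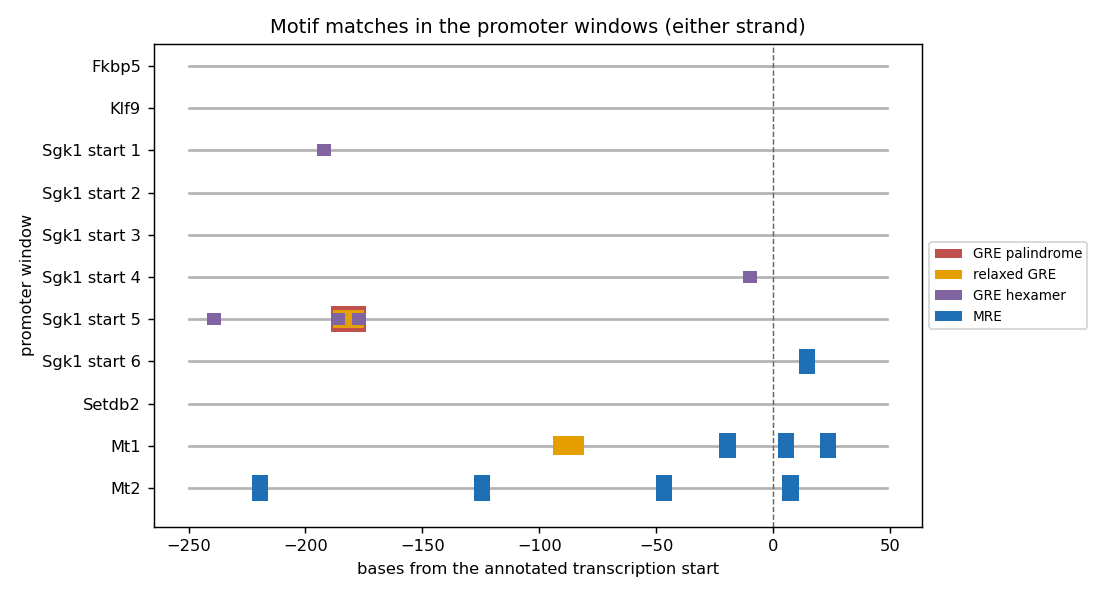
Motif matches on either strand in the 11 promoter windows of the 6 genes, with the distance in bases from the annotated start on the x axis and 1 line per window. The full GRE palindrome lies in 1 of 6 Sgk1 windows, 189 bases before the annotated transcription start, and MRE matches number 4 in the Mt2 and 3 in the Mt1 window.

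**Figure D2:**
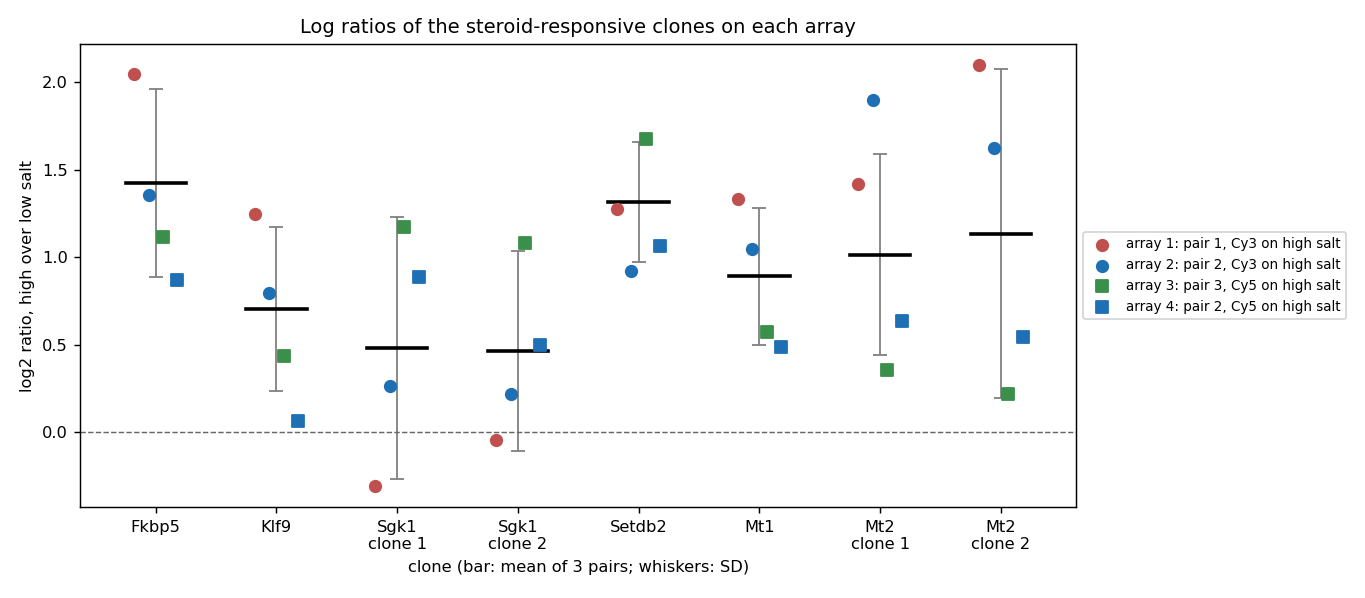
Log2 ratio of high over low salt (y axis) of each of the 8 clones (x axis) on each of 4 arrays, with circles for Cy3 and squares for Cy5 on high salt and colours for the pairs. Bars are means over 3 pairs and whiskers their SD, and the clones below 0 on any array are the 2 Sgk1 clones, on array 1.

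Side by side, the gene means ran from 1.43 for Fkbp5 through 1.32 for Setdb2, 1.08 for Mt2, 0.89 for Mt1 and 0.71 for Klf9 to 0.47 for Sgk1. Each step between neighbours in that order was smaller than the SD of either gene, so the order among neighbours is not resolved. The median of the 6 genes was 0.98, and their medians in pairs 1 to 3 were 1.30, 0.88 and 0.85. The median of all 8106 genes was -0.0003. Of the 6 genes 5 lay above 0 on all 4 arrays, as did 7.01% of all genes. Of the 8 clones 6 did, as did 6.65% of all clones. Since the genes were chosen on these values, nothing is read from these counts. With arrays 1 and 2 turned, as if the ratios were Cy5 over Cy3, the means ran from 0.51 for Sgk1 to -0.69 for Mt2. Between them lay 0.16 for Setdb2, -0.34 for Mt1 and -0.39 for both Fkbp5 and Klf9. The median was then -0.37, and 0 of the 6 genes lay above 0 on all arrays, beside 12.7% of all genes. Had the ratios been Cy3 over Cy5, arrays 3 and 4 would need turning instead. Every turned mean and median given here would then have the opposite sign. Across the whole table limma called 0% of the 16471 clones for salt at an adjusted p under 0.05, and at an unadjusted p under 0.05 it had 464 clones higher and 394 lower.

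The members other than Setdb2 fell apart by dye orientation, and the share of all genes that did so was not counted. Log ratios went with orientation across the 16471 clones too, at r = 0.43 and 0.57 between arrays of the same orientation. Between arrays of opposite orientation r was -0.07 to -0.37. The split is therefore not read as a trait of these genes. Fkbp5, Klf9, Mt1 and Mt2 were higher on each array with Cy3 on high salt than on either array with Cy5 on it. Sgk1 was lower on each array with Cy3 on high salt than on either with Cy5. Setdb2 was higher with Cy5 on high salt only on average, since array 1 (1.28) lay above array 4 (1.06). Averaged over the arrays of 1 orientation, Mt2 stood at 1.76 with Cy3 and 0.44 with Cy5 on high salt, and Klf9 stood at 1.02 with Cy3 and 0.25 with Cy5. Sgk1 went the other way, at 0.03 with Cy3 and 0.91 with Cy5. Setdb2 differed least, at 1.10 and 1.37 in the same order. Each average joins pair 2 with pair 1 or pair 3, so mice and dye orientation cannot be told apart in it.

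Pair 2 held both orientations within the same mice. Array 2 minus array 4 was 1.17 for Mt2, 0.73 for Klf9, 0.56 for Mt1, 0.49 for Fkbp5, -0.14 for Setdb2 and -0.45 for Sgk1. In absolute size the difference of Mt2 was at percentile 97.0 of all genes and that of Klf9 at 90.5. Those of Mt1, Fkbp5, Sgk1 and Setdb2 were at percentiles 84.1, 80.5, 78.3 and 38.7. Sgk1 stood at -0.18 in pair 1 and 1.13 in pair 3, pairs that differ in both mice and dye orientation, which cannot be told apart there.

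These differences are from the log ratios that chose the genes and are a description, with no test. Over the whole table, the dye orientation term of a limma fit, which compares pair 1 with pair 3 because the dyes cancel in pair 2, called 0% of clones and, with clones averaged per gene, 5.13% of genes at an adjusted p under 0.05. At an unadjusted p under 0.05 it called 21.4% of clones.

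**Figure D3:**
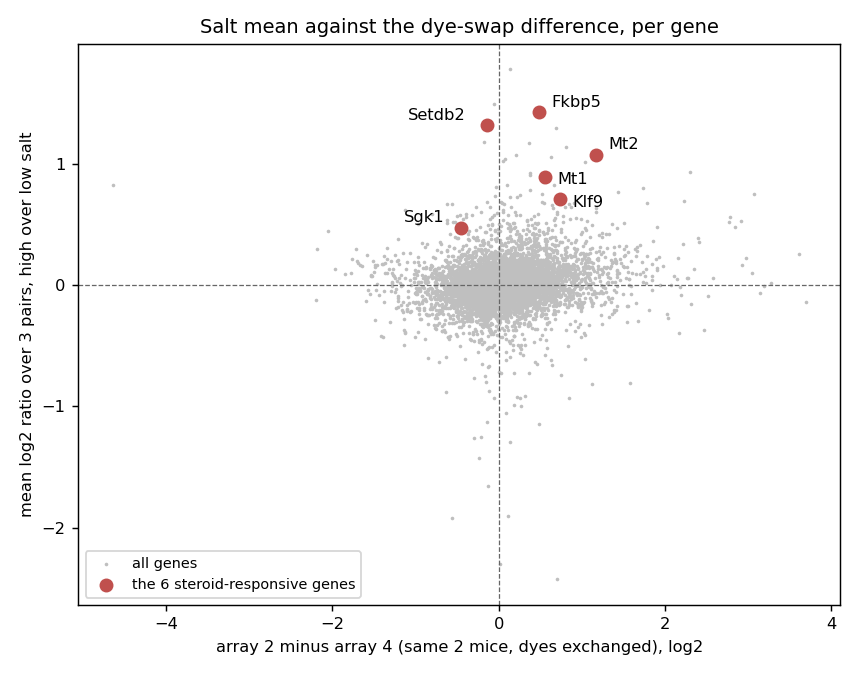
Mean log2 ratio over 3 pairs, high over low salt (y axis), against the difference between arrays 2 and 4 (x axis), which hold the same mice with exchanged dyes, for 8106 genes (grey) and the 6 steroid-responsive genes (red). Setdb2 lies near 0 on the x axis, at -0.14, and Mt2 lies farthest to the right among the 6, at 1.17.

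The genes nearest to each member were sought by Euclidean distance over the log ratios of the 4 arrays. Klf9 was closest to Fstl3 (distance 0.30), a secreted binder of activin, and Mt1 to Serpinf1 (0.23), a secreted serpin. Sgk1 was closest to Stmn1 (0.32), a microtubule-destabilising protein, at 0.04, 0.43, 1.08 and 0.82 on arrays 1 to 4. Setdb2 was closest to Ciart (0.62), a circadian repressor, which was also among the 3 genes nearest to Fkbp5 (0.85). Fkbp5 was nearest to Sparc (0.76), a matrix glycoprotein, and Mt2 to Ppp1r3c (0.49), a glycogen-targeting phosphatase subunit. No member was among the 3 nearest genes of another: the closest members were Klf9 and Mt1 (0.52), and the farthest were Sgk1 and Mt2 (2.60). These distances describe 4 arrays of 6 mice, which differ in dye orientation, and turning the sign of an array for all genes leaves them as they are.

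The other genes listed around the members, called the pathway lists here, were spread around 0. The lists hold receptor, chaperone, Sgk1 pathway and other corticosteroid-induced genes. They also hold metal-handling, Krüppel-like and histone methylation genes, so the pooled counts do not describe steroid signalling alone. Of 101 other genes listed by role, 65 were measured, 38 with a mean above 0 and 27 below, beside 49.8% above 0 over all genes. Their median was 0.03. With arrays 1 and 2 turned, 30 of the 65 were above 0, beside 46.7% of all genes, and the median was -0.03. By limma over all genes 0 of the 65 passed an adjusted p of 0.05, as did 0% of the 8106 genes. At an unadjusted p under 0.05 by limma, 5 of the 65 were higher and 5 lower. In each direction that is a larger share than the 2.81% higher and 2.63% lower of all genes. The lists were chosen with earlier results of these data known, so nothing is read from it.

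The receptors themselves lay near 0. The glucocorticoid receptor gene Nr3c1 had log2 ratios of -0.27, -0.30, 0.17 and 0.06 on arrays 1 to 4, split by dye orientation, with a mean of -0.07 ± 0.22 (SD, n = 3 pairs). The mineralocorticoid receptor gene Nr3c2 had -0.01, -0.01, 0.03 and 0.14 and a mean of 0.03 ± 0.04. Of their cofactors, Ncoa1 stood at -0.08 ± 0.07, Ncoa2 at -0.06 ± 0.08 and Nrip1 at 0.14 ± 0.43. Of these 5 genes 2 were above 0, and 4 with arrays 1 and 2 turned, where Nr3c1 stood at 0.21 and Nr3c2 at 0.04.

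The chaperones that hold the receptors, the partners of FKBP51, were 6 above and 6 below 0 among 12 measured, with a median of 0.02. They ran from Fkbp4 at -0.26 ± 0.31, the immunophilin FKBP52 that competes with FKBP51, to Hsp90aa1 at 0.22 ± 0.21. With arrays 1 and 2 turned, 6 of 12 were above 0, Hsp90aa1 stood at -0.07 and Fkbp4 at -0.21. Fkbp4 had 0.08, -0.30, -0.53 and -0.33 on arrays 1 to 4, against 2.05, 1.36, 1.12 and 0.87 for Fkbp5. Ppp5c, protein phosphatase 5, had 2.20, 1.72, -2.11 and -1.33, so its mean of 0.10 ± 2.16 joined values opposed by dye orientation.

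Of 8 measured genes of the Sgk1 pathway, upstream kinase partners included, and of sodium handling, 5 lay above 0, and 1 with arrays 1 and 2 turned. They ran from Scnn1b, a subunit of the epithelial sodium channel, at -0.22 ± 0.36 to Atp1b1, the sodium pump beta subunit, at 0.24 ± 0.12. Nedd4l, the SGK1 substrate, stood at -0.01 ± 0.04. The list's median was 0.06, and -0.14 with the arrays turned. Of the genes around metallothionein, 5 of 8 were above 0, and 3 with the arrays turned, from Cp, the copper-carrying ceruloplasmin, at -0.26 ± 0.10 to Slc39a14, a zinc importer, at 0.22 ± 0.41. Mtf1, the factor that binds MREs, was at 0.13 ± 0.60. Turned, these 3 stood at 0.05 for Cp, -0.29 for Slc39a14 and -0.50 for Mtf1.

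Among 7 other Krüppel-like factors 5 were above 0, with Klf13 at 0.32 ± 0.38 and Klf11 at -0.25 ± 0.14 at the ends. Klf6, an early-response member of the family, was above 0 on all arrays, at 0.21, 0.21, 0.37 and 0.23. Turned in the same way, 5 of the 7 were again above 0, with Klf13 at 0.14, Klf11 at 0.03 and Klf6 at 0.06. Among 9 measured genes of histone H3 lysine 9 methylation 5 had a mean above 0. All means lay between -0.07 ± 0.10 for Setdb1 and 0.12 ± 0.57 for Ehmt1. Ehmt1 had 0.72, 0.16, -0.41 and -0.05 on arrays 1 to 4, split by dye orientation. None of the 9 had 1 sign on all arrays. Only 1 of the 9 was above 0 with arrays 1 and 2 turned, and Ehmt1 stood at -0.41 and Setdb1 at -0.06.

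The other corticosteroid-induced genes were spread on both sides. Of 16 measured, 10 were above and 6 below 0, with a median of 0.07, and 4 were above and 4 below 0 on all 4 arrays, against 7.01% and 7.75% of all genes. Lcn2, a siderophore-binding secreted protein, was at the upper end, at 1.11, 1.98, 1.15 and 1.28 on arrays 1 to 4. Nfkbia, an inhibitor of NF-κB that glucocorticoid induces, was at the lower end, at -1.32, -0.28, -0.48 and -0.47. The mean of Nfkbia was -0.72 ± 0.52 and that of Lcn2 was 1.30 ± 0.29 (SD, n = 3 pairs). Their order reversed with arrays 1 and 2 turned, with Lcn2 at -0.10 and Nfkbia at 0.25, and 10 of the 16 were above 0.

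**Figure D4:**
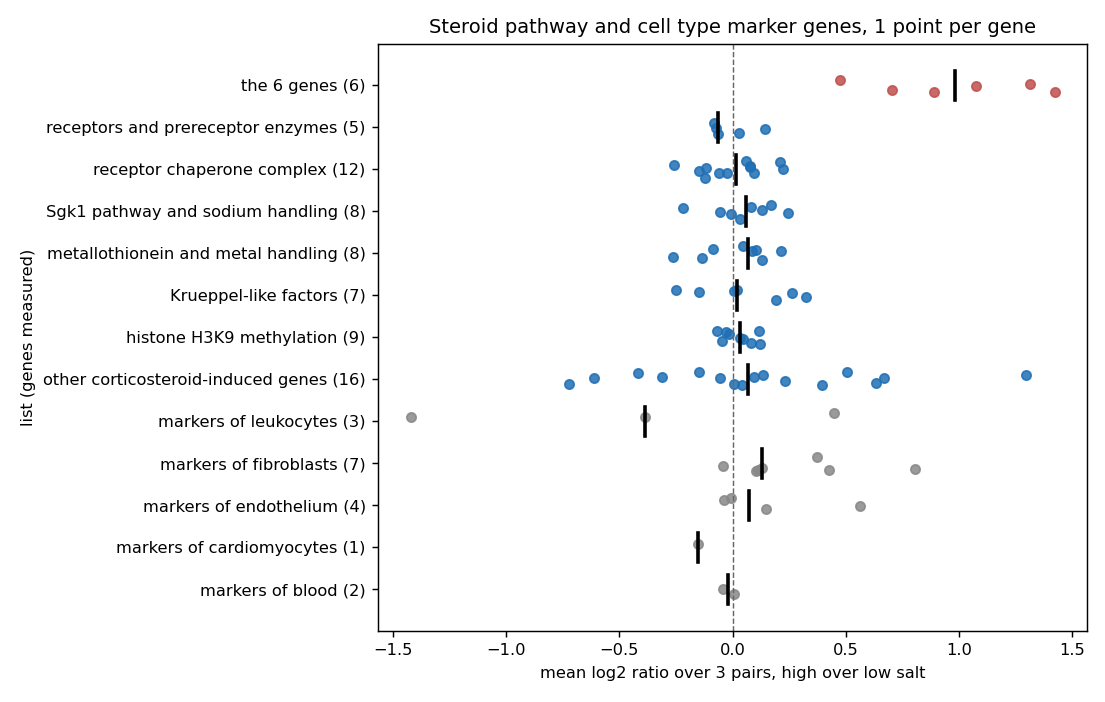
Mean log2 ratio over 3 pairs, high over low salt (x axis), of each measured gene of the pathway lists (blue) and cell type marker lists (grey), with the 6 steroid-responsive genes (red) on top and a black bar at each list's median. The 6 genes, which were chosen on these values, lie between 0.47 and 1.43, or between -0.69 and 0.51 with arrays 1 and 2 turned. The medians of the 7 pathway lists lie between -0.06 and 0.07, or between -0.14 and 0.04 with those arrays turned.

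Markers of other cell types in the ventricle pieces were measured beside these genes. Of 7 fibroblast markers 6 were above 0, with a median of 0.13 and list medians of 0.14, 0.14, 0.33 and 0.15 on arrays 1 to 4. They ran from Tcf21, a transcription factor, at -0.04 ± 0.02 to Vim, an intermediate filament gene, at 0.81 ± 0.21 (SD, n = 3 pairs). The 3 leukocyte markers (median -0.39) went both ways. S100a9, a neutrophil protein, stood at -1.14, -1.31, -1.94 and -1.07 on arrays 1 to 4, whereas Lyz2, a macrophage and neutrophil lysozyme, stood at 0.13, 0.42, 0.87 and 0.28. Of 4 endothelial markers (median 0.07) 2 were above 0, from Tie1, a receptor kinase, at -0.04 ± 0.13 to Cdh5, a cadherin, at 0.57 ± 1.21. The blood markers were Alas2, of haem synthesis, at 0.0048 ± 0.10 and Slc4a1, an anion exchanger of red cells, at -0.04 ± 0.03, and the cardiomyocyte marker Atp2a2, a calcium pump, stood at -0.15 ± 0.21. With arrays 1 and 2 turned the list medians were 0.0047 for fibroblasts, 0.16 for leukocytes, -0.06 for endothelium and 0.01 for blood, and Atp2a2 stood at 0.13. Whether cell makeup had a part in the members' values was not tested.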

How the data were processed

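For every feature of an array the authors deposited a single log ratio, read as log2. Base, background correction, normalization and direction: not given in the sources used here. Array medians lay between -0.0062 and 0.01. Of 17664 features, 17207 had values on all 4 arrays, and 736 recurring unnamed features were left out, a choice made with the values known. Names came from the platform annotation: 12563 features had 1 symbol, 412 several and 4689 none. No intensities were used, so dim spots could not be filtered, and precision is limited by how few arrays there are.

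The test of salt was limma's moderated test (version 3.58.1, R 4.3.3) of pair values against 0. Benjamini-Hochberg adjustment at 0.05 ran over all clones or genes. The test was also run on simulated data with noise independent between clones and pairs. That noise held no dye orientation effect, so the check does not cover one. Clones of 1 symbol were averaged per gene. Mice of separate pairs are the replicates. The members, lists and tests were chosen with earlier results of these data known. By rule, named genes were the members and the highest and lowest mean of each list. The rule also took every measured gene of the receptor list (8 listed) and genes among the 3 nearest by distance. Klf6, Nedd4l, Mtf1 and Ppp5c were added after their values were seen. Alternatives covered array direction, scaling, single arrays of pair 2, a dye covariate, left-out pairs and all features. Promoter sequences and coordinates are RefSeq's, GRCm38.p6, and all 6 genes matched.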

Additional observations from a re-analysis of the deposited data

How the results depend on the processing

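By limma 0 clones passed for salt under each alternative run, as did 0 genes of the pathway lists; at an unadjusted p under 0.05 the clones numbered from 174 higher and 135 lower without pair 2 to 1201 higher and 1895 lower with arrays 1 and 2 turned. Arrays 1 and 2 were also multiplied by -1, as if the ratios had been deposited as Cy5 over Cy3. The median of the 6 genes was then -0.37 against 0.98, and 0 of the 6 genes lay above 0 on all arrays against 5. Under that reading Fkbp5 stood at -0.39, Klf9 at -0.39, Mt1 at -0.34, Mt2 at -0.69 and its clones at -0.57 and -0.81, while Sgk1 stood at 0.51 and Setdb2 at 0.16. Scaling, single arrays of pair 2 and leaving out a pair gave 36 further gene values, of which 0 turned sign. All 36 moved by less than 1 SD over the pairs. Leaving out 1 of 3 pairs cannot move a mean by that much, so this was fixed in advance for those values. Leaving out a pair put the median between 0.77 and 1.09, and Klf9 (0.43 without pair 1), Sgk1 (0.15 without pair 3, 0.80 without pair 1) and the second Mt2 clone (0.65 without pair 1) moved by over 1.5 times. The orientation term called 416 genes with clones averaged per gene, against 0 single clones, and the cause was not tested. The pathway count above 0 ran from 29 without pair 1 to 39 without pair 3 and was 30 with arrays 1 and 2 turned, against 38. Signal over background is unknown.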
